A study of Rattus norvegicus with 4 samples.

Results

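The enzymes described here carry glucose carbon through glycolysis, glycogen storage, the pentose phosphate route and the citrate cycle. A list of 49 genes was used, in 4 groups: 24 of glycolysis, 6 of glycogen, 3 of the pentose phosphate route and 16 of pyruvate and the citrate cycle. A gene was a member when at least 1 probe set of the array, Affymetrix controls left out, had that gene as its single symbol. This held for 38 of the 49, with 71 of the 8740 probe sets and 38 of the 4736 named genes in all. No probe set carried Gpi, Eno2, Gys1, Ugp2, Idh3a, Idh3b or Fh as its single symbol, and Gapdh, Tpi1, Ldha and Pgd had only control probe sets or probe sets with several symbols. Of the 38 members, 31 were measured, meaning that their brightest probe set lay above the floor of at least 1 array. By that probe set the other 7 were below the floor on all 4 arrays: Fbp1, Aldoc, Pgam2, Eno3, Pygl, Pdk4 and Pc. The second Aldoc probe set was just above it on the estradiol array at 24 h, at 91.3. Counts and medians below cover the measured members and so describe less than the full list.

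Glycolysis splits glucose to pyruvate in the cytosol and yields ATP without oxygen. Glycogen phosphorylase releases glucose units from stored glycogen, the pentose phosphate route makes ribose and NADPH, and pyruvate dehydrogenase feeds the citrate cycle in mitochondria. Uterine smooth muscle makes lactate and holds glycogen, and estrogen has long been known to raise glycogen in the uterus of ovariectomized rats.

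The study measured rat myometrium, which is the muscular layer of the uterus, on 4 Affymetrix RG_U34A arrays, with 1 array for each of 4 groups. All rats, controls included, were 60 days old and had lost their ovaries a week before treatment. They received estradiol benzoate under the skin at 10 µg per kg, a long-acting ester of the main ovarian estrogen, or vehicle, and the uterine horns were taken 6 or 24 h later. Each array held labelled RNA from the pooled tissue of 6 animals, so no group had a replicate, the spread between animals was not measured, and no p-value was computed within a time. No source used here names the strain.

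The labels at 6 h stand against known estrogen targets. The summed signal of Igf1, Pgr, S100g and Hsd11b2 at 24 h was 26121 on the estradiol array against 6747 on its control. At 6 h the array with the estradiol label gave only 2934 and the one with the control label 28248, and all 4 genes were at least 2-fold higher at 24 h and at least 2-fold lower at 6 h. The 6 h arrays are therefore named by their labels throughout, and any direction at 6 h holds only as labelled. Smooth muscle markers were above the floor on every array for 12 of 12 genes, and none differed 2-fold between treatments at either time. Summed epithelial markers, 8 genes, ran at 4117 and 1157 on the arrays labelled control and estradiol at 6 h, and at 1670 and 6270 on the control and estradiol arrays at 24 h. Summed adipocyte markers, 7 genes, were 2877 on the estradiol array at 24 h and between 5011 and 6217 on the other 3. Only 5 of the 7 were measured. Of these, Cfd and Lpl were at least 2-fold lower on the estradiol array at 24 h, against 8.04% of all genes, and 0 were higher. Lpl read 2775 on the control and 456 on the estradiol array at 24 h, while Lipe read 433 and 398. In pooled tissue, fewer cells of a type and less RNA per cell cannot be told apart. Each time had its own scan day, so these cannot be told apart. A communication error ended the washing record of the 24 h control. Signals are given below in array units after scaling each array to a mean of 500, and they are not comparable between genes.

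At 24 h, 8 of the 31 measured members were at least 2-fold higher on the estradiol array, against 8.68% of all 3619 measured genes, and 1 was at least 2-fold lower, against 8.04% of all genes. The 8 were Pgk1, Pygb, Taldo1, Pdha1, Cs, Mdh2, Me1 and Idh1, and the lower one was Pygm. As shares of the members these are 25.8% and 3.23%. The median log2 difference of the members was 0.11, and that of all genes was -0.17, which equals the ratio of the floors of both arrays. Scaling to a common median moved the median of all genes by 0.14, and no member was then 2-fold lower. Over all genes, those lower then numbered 203 in place of 291, and those higher 389 in place of 314. Over the 4 arrays, the estradiol array at 24 h gave the highest signal for 13 of 31 members, or 41.9%, against 20.1% of all genes. The control array at 24 h was highest for 9 members, against 25.0% of genes, the array labelled control at 6 h for 6, against 30.9%, and the array labelled estradiol at 6 h for 3, against 23.9%. Counted by probe set, 54 of the 71 were measured, of which 11 were higher at 24 h, against 8.3% of all 6157, and 3 lower, against 8.36%.

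The 8 higher members at 24 h do not all rest on equal ground. For Taldo1, Cs and Pdha1 the control array at 24 h was the outlying one, at least 2-fold below each of the other 3 arrays. With such probe sets left out, an alternative chosen after seeing the data, 5 members remained at least 2-fold higher: Pgk1, Pygb, Mdh2, Me1 and Idh1. Against the array labelled control at 6 h in place of the control at 24 h, 3 of the 8 remained, namely Pgk1, Me1 and Idh1. That array was high in estrogen targets, so this is not a clear treatment contrast. The share of all genes under either change is not given here, so these counts cannot be set against the 8.68% above.

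At 6 h, 6 of the 31 members were at least 2-fold higher on the array labelled estradiol, against 6.47% of all genes, and 0 were 2-fold lower, against 5.08%. They were Ldhb, Pygb, Pygm, Pdk2, Aco1 and Idh1, or 19.4% of the members. The median log2 difference was -0.07 for the members and -0.06 for all genes. Pygb and Idh1 were higher at both times, 6 members were higher at 24 h alone, 3 were higher at 6 h alone, and 19 passed the rule at neither time. Of all 3619 measured genes, 21 were higher at both times, 239 at 24 h alone and 145 at 6 h alone, and 2745 passed at neither. By probe set 10 of 54 were higher at 6 h, against 6.94% of all, and 1 was lower, against 5.38%. Pygm was lower at 24 h and higher at 6 h as labelled, as were 68 of all 3619 measured genes.

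**Figure D1:**
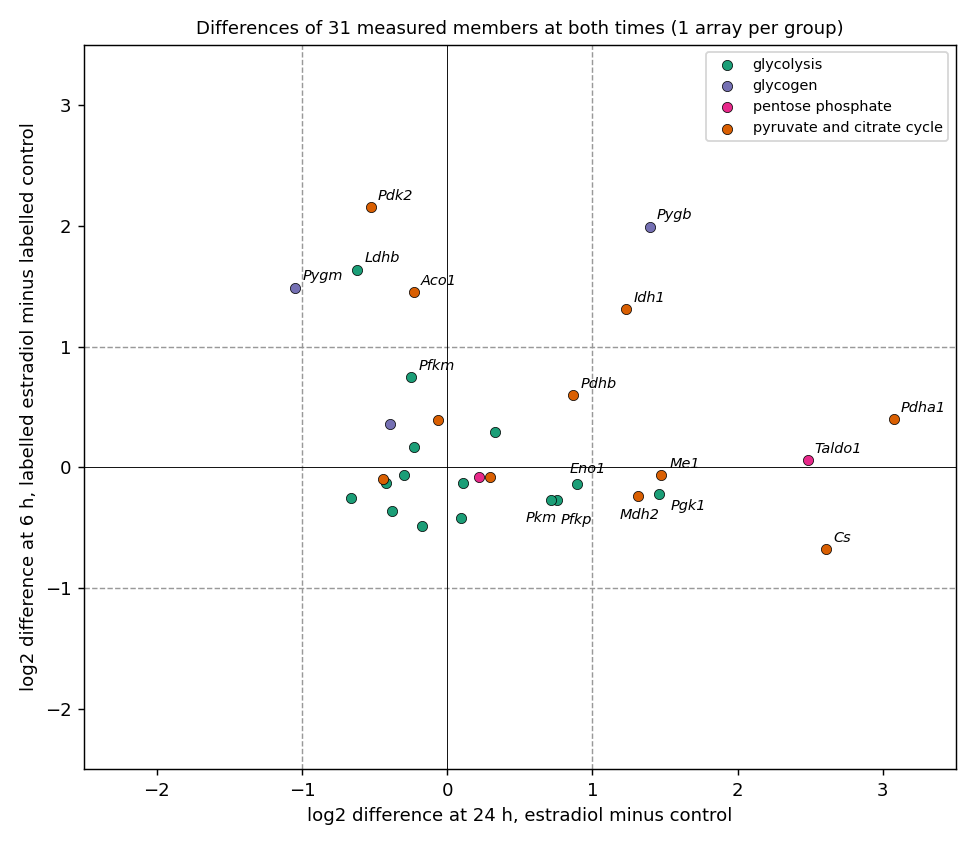
Log2 difference of the 31 measured members at 24 h (x axis, estradiol minus control) and at 6 h (y axis, labelled estradiol minus labelled control), 1 point per gene by its brightest probe set, coloured by group, with dashed lines at 2-fold. Pygb and Idh1 lie past 2-fold on both axes, Pygm lies past it in opposite directions, and the points far to the right are Pdha1, Cs and Taldo1, whose control array at 24 h was low.

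In glycolysis, 15 of 19 members on the array were measured, and the log2 differences at 24 h ran from -0.66 for Pfkfb3, near the floor, to 1.46 for Pgk1. The median of the 15 was -0.17 at 24 h and -0.14 at 6 h, with 1 higher member at each time and 0 lower. Over all genes the medians were -0.17 and -0.06, with 8.68% and 6.47% higher and 8.04% and 5.08% lower. The hexokinases did not reach 2-fold by their brightest probe sets. Hk1 and Hk2, the hexokinases that trap glucose as its phosphate, gave log2 differences of -0.42 and -0.38 at 24 h and of -0.13 and -0.36 at 6 h. A second, dimmer Hk2 probe set read 378 on the array labelled control at 6 h and 147 on the array labelled estradiol, a log2 difference of -1.37, which the brighter one did not show. The Affymetrix control probe sets for Hk1, outside the member counts, were dim and ran the other way at 24 h, with log2 differences of 0.10 for the 3′, 0.32 for the 5′ and 1.08 for the middle one, which read 141 on the control and 298 on the estradiol array.

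Phosphofructokinase commits sugar to glycolysis, and its 3 subunit genes differed in pattern. Pfkp, the platelet form, read 2396 and 1981 on the arrays labelled control and estradiol at 6 h, 2406 on the control array at 24 h and 4071 on the estradiol array at 24 h. The last array alone was high, by 1.69-fold over its control, and the second Pfkp probe set gave a log2 difference of 0.92. Pfkm, the muscle form, read 537, 902, 983 and 827 in the same order of arrays, lowest on the array labelled control at 6 h. The dimmer Pfkm probe set did not follow this, at 281, 221, 410 and 214, with log2 differences of -0.94 at 24 h and -0.35 at 6 h. Pfkl, the liver form, stayed between 349 and 453. Pfkfb1, which makes or removes the activator of phosphofructokinase, ran from 273 on the estradiol array at 24 h to 418 on the array labelled control at 6 h. Only 1 of its 4 probe sets was above the floor on any array. Pfkfb2, Pfkfb3 and Fbp2 crossed the floor on only some arrays and reached at most 160.2.

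Pgk1, which makes the first ATP of glycolysis, was the one member of this group past 2-fold at 24 h. It read 2217 on the array labelled control at 6 h, 1907 on the array labelled estradiol at 6 h, 2199 on the control array at 24 h and 6053 on the estradiol array at 24 h. The first 3 arrays lay close together and the estradiol array at 24 h was 2.75-fold over its control and 2.73-fold over the highest of the others. A second Pgk1 probe set read 816, 636, 395 and 1711 in the same order, a log2 difference of 2.12 at 24 h, and the remaining one was below the floor on all arrays.

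Eno1, the enolase that forms phosphoenolpyruvate, was also highest on the estradiol array at 24 h, without reaching 2-fold by its brightest probe set. It read 5211, 4741, 4345 and 8063, which is 1.86-fold higher with estradiol at 24 h. Its dimmer probe set read 2093, 1820, 1743 and 3668, a log2 difference of 1.07. Pkm, the pyruvate kinase that makes the last ATP, read 3686, 3049, 3297 and 5416, which is 1.64-fold higher at 24 h. For Pgk1, Eno1, Pkm and Pfkp alike the estradiol array at 24 h was the highest of the 4, and the array labelled control at 6 h, which was high in estrogen targets, was not. Aldoa, the aldolase that splits the sugar, and Pgam1, the mutase between Pgk1 and Eno1, gave log2 differences of 0.11 and 0.09 at 24 h. The other 2 Pgam1 probe sets gave 0.51 and 0.80, so the size for this gene depends on the probe set.

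Gapdh, which precedes Pgk1 in the pathway, entered no count because it had only Affymetrix control probe sets and 1 probe set with several symbols. Its control probe set for the 3′ end read 5760, 5553, 5192 and 12029, its 5′ probe set 5236, 5012, 4945 and 10441, and its middle probe set 5461, 5143, 5566 and 10191. These 3 were highest on the estradiol array at 24 h, by 2.32-, 2.11- and 1.83-fold over the control. The matching probe sets for Actb, the cytoplasmic actin used beside it as a control, gave log2 differences of -0.20, -0.03 and -0.32.

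Ldhb, the heart-type lactate dehydrogenase subunit, showed another order. It read 932 on the array labelled control at 6 h, 2897 on the array labelled estradiol at 6 h, 1265 on the control array at 24 h and 822 on the estradiol array at 24 h. The array labelled estradiol at 6 h was 3.11-fold higher than its labelled control and stood above all the others. The second Ldhb probe set read 593, 2520, 1134 and 1039, a log2 difference of 2.09 at 6 h. At 24 h both Ldhb probe sets were slightly lower on the estradiol array, with log2 differences of -0.62 and -0.13.

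**Figure D2:**
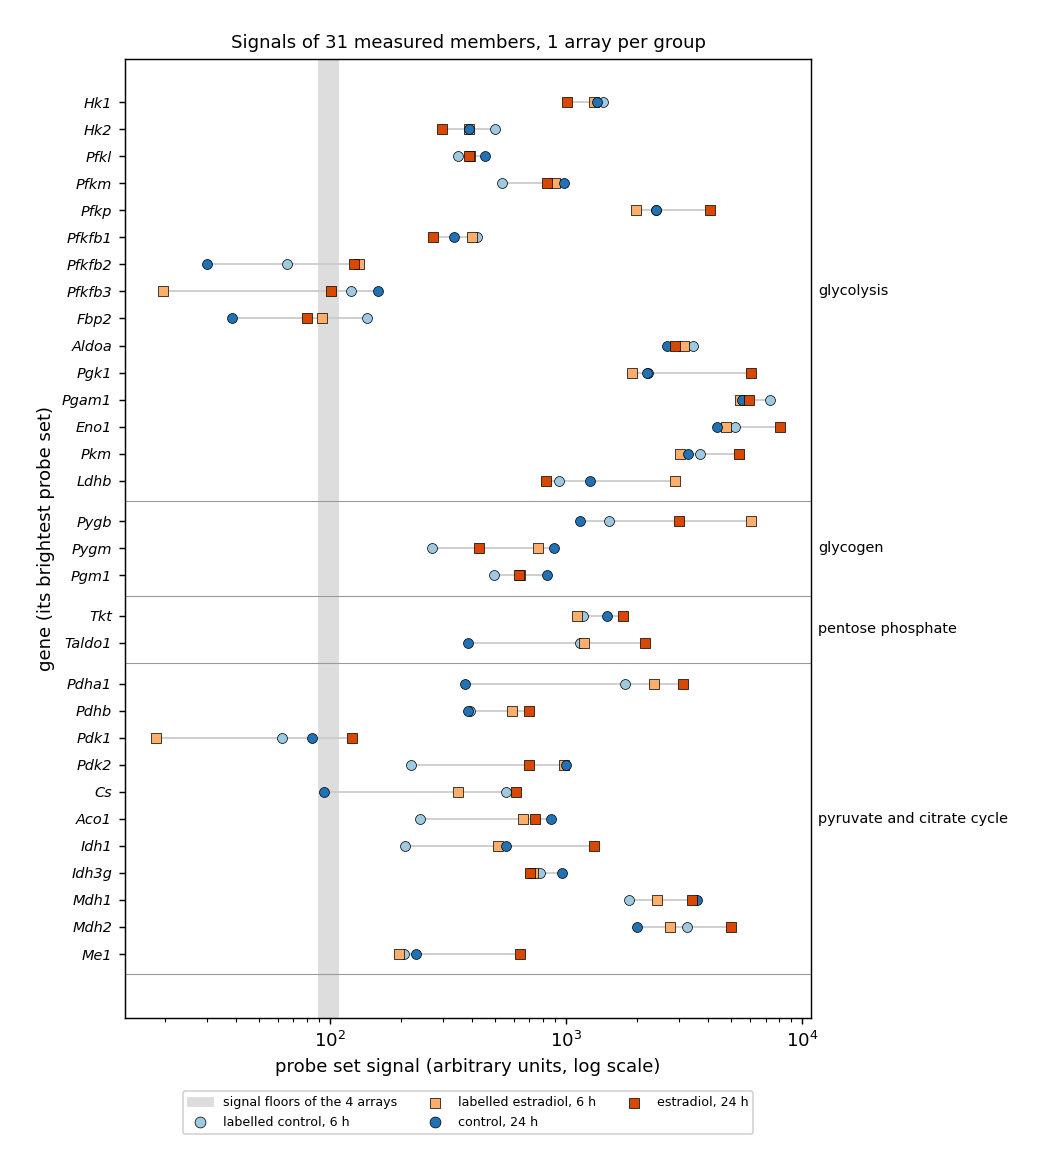
Signal of the 31 measured members (x axis, array units, log scale) with 1 row per gene by its brightest probe set, ordered by gene group. Circles are the arrays labelled control, squares the arrays labelled estradiol, pale colours 6 h and dark colours 24 h, and the grey band spans the floors of the 4 arrays. Pgk1 lies between 1907 and 2217 on 3 arrays and at 6053 on the estradiol array at 24 h, while the dark circle of Taldo1, Cs and Pdha1, the control at 24 h, lies far to the left.

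In the glycogen group both phosphorylases passed 2-fold at both times, Pygb in 1 direction and Pygm in both. Of 4 members on the array 3 were measured: 1 was higher and 1 lower at 24 h, and 2 were higher at 6 h. Over all genes 8.68% were higher and 8.04% lower at 24 h, and 6.47% were higher at 6 h. Pygb, the brain form of glycogen phosphorylase that is found in many tissues, read 1520 and 6051 on the arrays labelled control and estradiol at 6 h, and 1151 and 3024 on the control and estradiol arrays at 24 h. Both arrays labelled estradiol were above both arrays labelled control, by 3.98-fold at 6 h and 2.63-fold at 24 h within each time. A second probe set from the same expressed sequence tag read 329, 1221, 242 and 573, with log2 differences of 1.89 and 1.24. The remaining one, made from another Pygb sequence, read 34.0, 184, 529 and 223, and at 24 h it was lower on the estradiol array by a log2 difference of -1.25. Pygb was the only one of 17 members with several measured probe sets whose probe sets passed the rule in opposite directions at 24 h.

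Pygm, the muscle form of the same enzyme, read 270 on the array labelled control at 6 h, 759 on the array labelled estradiol at 6 h, 886 on the control array at 24 h and 429 on the estradiol array at 24 h. The signals on the arrays high in estrogen targets, 270 and 429, were the lowest. As labelled the difference was 2.81-fold higher at 6 h and 2.07-fold lower at 24 h, with log2 differences of 1.49 and -1.05, and whether these differ was not tested. The second Pygm probe set gave 1.17 and -1.15, and both come from 1 sequence. The value at 24 h is close to the threshold, and it was -0.90 with arrays scaled to a common median and -0.96 after quantile normalization. Pgm1, which converts the sugar phosphate released from glycogen, read 496, 635, 830 and 631 and passed 2-fold at neither time.

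**Figure D3:**
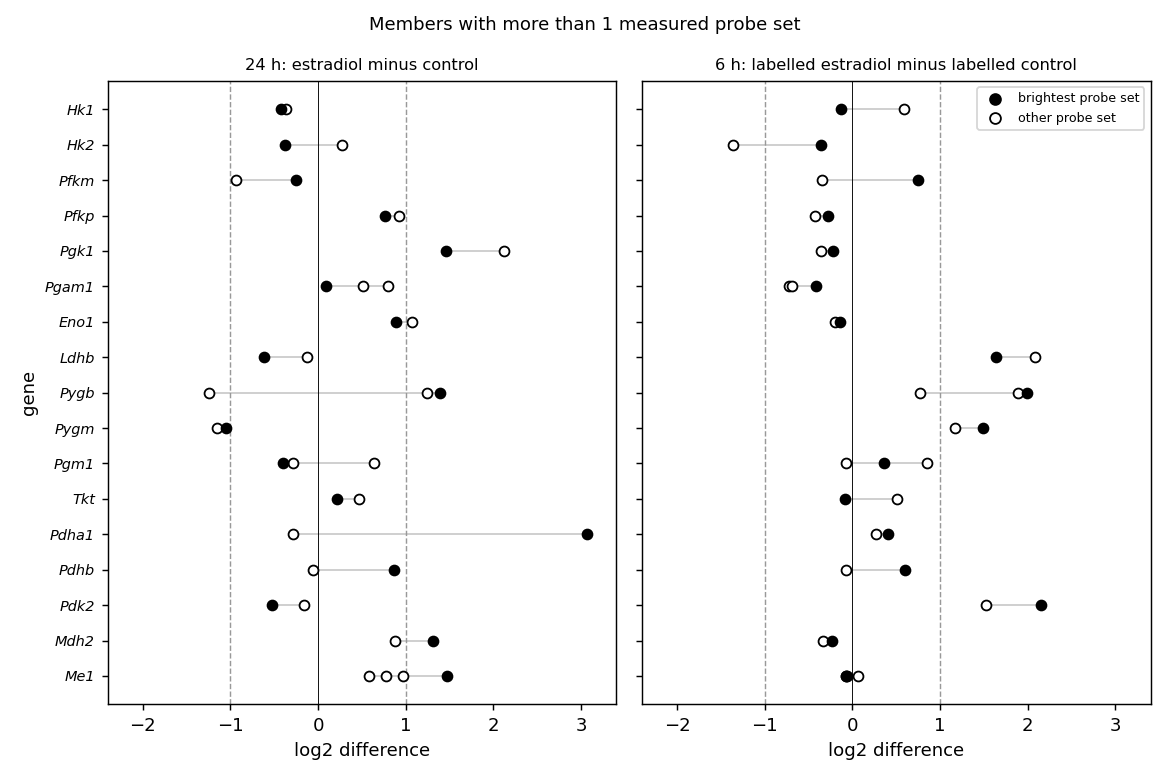
Log2 difference of every measured probe set of the members that have more than 1, with 1 row per gene, at 24 h and at 6 h, with filled points for the brightest probe set, open points for others and dashed lines at 2-fold. At 24 h the Pygb probe sets fall on both sides of 2-fold, and the Pdha1 probe sets at 3.07 and -0.29, while those of Pygm, Ldhb and Pgk1 keep to the same side.

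The start regions of the 4 members with the largest differences at 6 h are printed, since they carry the result at that time: both glycogen phosphorylases, the lactate dehydrogenase Ldhb and the kinase Pdk2 described below. Each is the 250 bases before the RefSeq gene start on build GRCr8, 5′ to 3′ on the strand of the gene. The windows are Pygb at chr3:160071891-160072140 (+), Pygm at chr1:213119555-213119804 (+), Pdk2 at chr10:80483913-80484162 (-) and Ldhb at chr4:177177409-177177658 (-). Capitals mark ACGTG, the core of the hypoxia response element, and AGGTCA, one arm of the estrogen response element, on either strand.
Pygb: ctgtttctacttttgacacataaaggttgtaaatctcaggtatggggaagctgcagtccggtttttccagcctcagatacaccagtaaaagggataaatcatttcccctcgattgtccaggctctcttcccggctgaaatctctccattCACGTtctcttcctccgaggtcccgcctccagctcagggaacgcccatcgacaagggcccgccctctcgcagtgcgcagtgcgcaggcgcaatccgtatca
Pygm: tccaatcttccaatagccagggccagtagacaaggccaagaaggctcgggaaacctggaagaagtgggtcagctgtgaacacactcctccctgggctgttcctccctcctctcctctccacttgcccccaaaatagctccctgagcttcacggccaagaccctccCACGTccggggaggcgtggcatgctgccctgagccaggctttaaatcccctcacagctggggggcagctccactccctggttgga
Pdk2: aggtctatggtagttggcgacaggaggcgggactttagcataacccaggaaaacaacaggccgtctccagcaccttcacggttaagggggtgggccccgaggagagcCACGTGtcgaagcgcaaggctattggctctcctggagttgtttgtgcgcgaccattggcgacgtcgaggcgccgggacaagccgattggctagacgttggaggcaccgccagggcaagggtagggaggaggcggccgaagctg
Ldhb: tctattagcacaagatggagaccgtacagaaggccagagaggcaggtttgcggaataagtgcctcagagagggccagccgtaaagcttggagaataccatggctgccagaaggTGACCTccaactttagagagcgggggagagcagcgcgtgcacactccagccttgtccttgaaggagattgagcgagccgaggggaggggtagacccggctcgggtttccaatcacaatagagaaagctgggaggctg
The marked letters start 101 bases before the gene start in Pygb and 85 in Pygm, and read CACGT, which is ACGTG on the opposite strand. In Pdk2 they start 143 bases before the gene start and form the palindrome CACGTG, the E-box, which contains ACGTG on both strands. The AGGTCA letters lie 137 bases before the start in Ldhb, read on the opposite strand.

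Of the 31 measured members 29 matched a RefSeq start region, with 33 windows among them. ACGTG was present in 11 of the 33, against 16.6% of 33469 windows of all genes, and CACGTG in 3, against 5.59%. AGGTCA was present in 3 of the 33, against 14.1%. The longer pattern of AGGTCA followed after any 3 bases by TGACC was in 0 of the 33, against 0.0209% of all windows. The GC box GGGCGG was present in 18, against 30.5%. Both strands were searched. A match describes letters in a window and is not a binding site.

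In the pentose phosphate group both members on the array were measured. Taldo1, the transaldolase that returns pentose carbon to glycolysis, read 1144 and 1190 on the arrays labelled control and estradiol at 6 h, 385 on the control array at 24 h and 2150 on the estradiol array at 24 h. The difference at 24 h was 5.58-fold, and the control array at 24 h was itself 2.97-fold below the array labelled control at 6 h. Against the array labelled control at 6 h, which was high in estrogen targets, the same estradiol array gave a log2 difference of 0.91. Tkt, the transketolase of the same route, read 1175, 1110, 1494 and 1735, with a log2 difference of 0.22 at 24 h.

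In the pyruvate and citrate cycle group 11 of 13 members were measured. At 24 h the group had 5 higher members, 0 lower ones and a median log2 difference of 0.87. At 6 h these values were 3, 0 and 0.39. Among all measured genes, 8.68% passed 2-fold upward and 8.04% downward at 24 h, where their median log2 difference was -0.17. The matching all-gene figures at 6 h, as labelled, were 6.47%, 5.08% and -0.06. The 5 higher members at 24 h include Cs and Pdha1, for which the control array at 24 h was the outlying low one. Pdha1, the catalytic subunit of pyruvate dehydrogenase, read 1780 and 2350 on the arrays labelled control and estradiol at 6 h, 372 on the control array at 24 h and 3133 on the estradiol array at 24 h. The difference at 24 h was 8.42-fold, again with a low control array. Its other probe set, from a coding sequence, read 546, 657, 1070 and 877, a log2 difference of -0.29 at 24 h, so the Pdha1 probe sets disagree. Pdhb, the partner subunit, read 391, 592, 383 and 698, which is 1.82-fold higher at 24 h.

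Cs, the citrate synthase that opens the cycle, had 1 probe set. It read 555 and 348 on the arrays labelled control and estradiol at 6 h, 94.5 on the control array at 24 h, which is below that array's floor, and 614 on the estradiol array at 24 h. The estradiol array was at least 6.09-fold higher at 24 h, yet only slightly above the array labelled control at 6 h.

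The low control array at 24 h was not particular to these enzymes. Over all measured probe sets, 186 of 6157, or 3.02%, were at least 2-fold lower there than on each of the other 3 arrays. Among probe sets whose GenBank sequence number begins with AA799 or AA800, runs of expressed sequence tags, the count was 68 of 394, or 17.3%. Among the rest it was 118 of 5763, or 2.05%. On the other 3 arrays the share of AA799 and AA800 probe sets that were low in the same way ran from 0.254% to 2.03%. The brightest probe sets of Taldo1, Cs and Pdha1 are all AA799 sequences and all among the 186. The Pygb probe sets higher at 24 h are AA800 sequences, lowest on that array but not 2-fold below the others. The part of this pattern, and of the wash error, in the differences at 24 h was not tested.

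**Figure D4:**
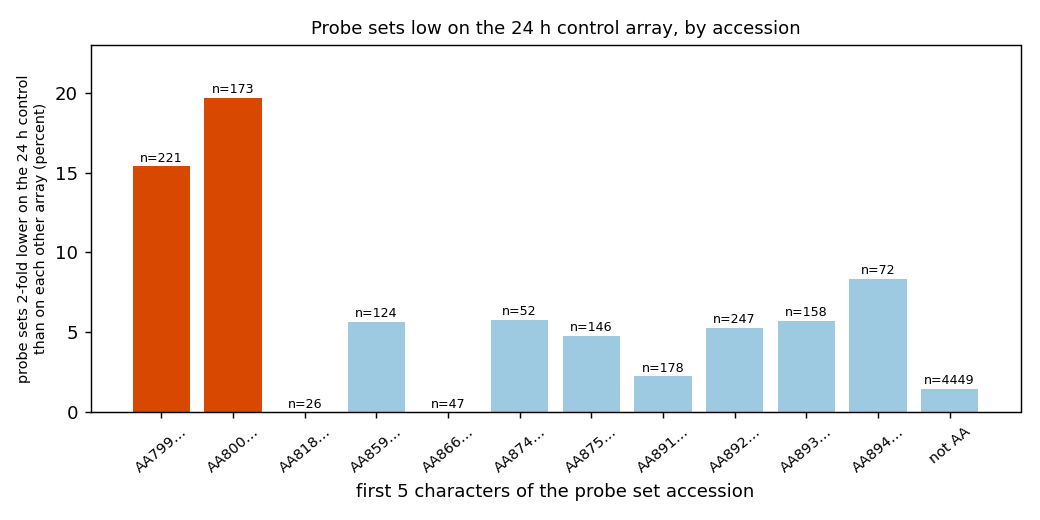
Share of measured probe sets (percent) at least 2-fold lower on the control array at 24 h than on each other array, by the first letters and digits of their GenBank sequence number, for runs of at least 20 probe sets, with all sequences that do not begin with AA in the last bar. AA799 at 15.4% and AA800 at 19.7% stand above the next run, AA894 at 8.33%, and the last bar at 1.46%.

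For Mdh2, Me1 and Idh1, also higher at 24 h, the control array at 24 h was not 2-fold below the other 3. Mdh2, the mitochondrial malate dehydrogenase that closes the cycle, read 3255, 2760, 2004 and 4985, which is 2.49-fold higher at 24 h, and its second probe set gave a log2 difference of 0.87. Against the mean of both arrays labelled control the Mdh2 difference was 0.96 on the log2 scale, just under 2-fold. Me1, the cytosolic malic enzyme that makes NADPH, read 206, 196, 232 and 641. The first 3 arrays lay together and the estradiol array at 24 h was 2.77-fold over its control. The other 3 measured Me1 probe sets gave log2 differences of 0.58, 0.77 and 0.97, in the same direction but under 2-fold. Mdh1, the cytosolic malate dehydrogenase, read 1852, 2433, 3577 and 3421, with a difference of -0.06 at 24 h.

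Idh1, the cytosolic isocitrate dehydrogenase that also makes NADPH, read 208 on the array labelled control at 6 h, 515 on the array labelled estradiol at 6 h, 559 on the control array at 24 h and 1314 on the estradiol array at 24 h. Each array labelled estradiol was above the array labelled control of its time, by 2.48-fold at 6 h and 2.35-fold at 24 h. The arrays labelled control differed by 2.69-fold. The other Idh1 probe set was below the floor on all arrays. Idh3g, a subunit of the mitochondrial enzyme, stayed between 707 and 959.

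Pdk2 and Aco1 were low on 1 array, the one labelled control at 6 h. Pdk2, the kinase that switches pyruvate dehydrogenase off, read 220 there, 977 on the array labelled estradiol at 6 h, 1004 on the control array at 24 h and 697 on the estradiol array at 24 h. The labelled difference at 6 h was 4.45-fold, and the second Pdk2 probe set, at 251, 720, 632 and 567, gave a log2 difference of 1.52. Aco1, the cytosolic aconitase that doubles as an iron sensor, read 241, 658, 863 and 736 in the same order of arrays, with a difference of 2.73-fold at 6 h. At 24 h Pdk2 and Aco1 gave log2 differences of -0.53 and -0.23. Pdk1, a related kinase, was above the floor on the estradiol array at 24 h alone, at 123.

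The arrays labelled control differed from each other for 7 members, and the one at 6 h was high in estrogen targets. The control at 24 h was at least 2-fold higher than the array labelled control at 6 h for 4 of 31 members, against 7.63% of all genes, and 2-fold lower for 3, against 9.62%. The 4 were Aco1, Idh1, Pdk2 and Pygm, and the 3 were Cs, Pdha1 and Taldo1. By probe set 9 of 54 were higher, against 8.43%, and 5 lower, against 9.45%. This comparison shares the control at 24 h with the treatment comparison at 24 h, and the array labelled control at 6 h with that at 6 h. With the controls exchanged, the log2 differences of Aco1, Idh1, Pdk2 and Pygm at 6 h were -0.39, -0.12, -0.039 and -0.22. These 4 were named by the difference between the same arrays labelled control, which enters that exchange, so this is not a separate result. By their brightest probe sets Ldhb and Pygb stayed past 2-fold at 6 h with the controls exchanged. That Pygb probe set is an AA800 sequence, a run often low on the control at 24 h. The Pygb probe set from another sequence went the other way, at 184 on the array labelled estradiol at 6 h and 529 on the control at 24 h.

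Other genes of the same routes, 44 measured over 6 lists, gave 4 that were higher at 24 h and 4 that were lower, and their median was -0.11. Over all genes 8.68% were higher and 8.04% lower at 24 h, so these counts lie near the general share. Higher were Got1 and Got2, the aspartate aminotransferases of the malate shuttle, by 2.03- and 2.24-fold, Slc25a1, the mitochondrial citrate carrier, by 3.60-fold, and Prps1, which makes activated ribose, by at least 3.42-fold. Slc25a1 and Prps1 were also at least 2-fold lower on the control at 24 h than on each other array. Lower were Gsk3a, a kinase that inhibits glycogen synthase, by 2.04-fold, Phkg1, a subunit of the kinase that activates phosphorylase, by 2.14-fold, Pfkfb4 by 2.03-fold, and Gckr, the glucokinase regulator, by at least 2.05-fold. Got1 read 1151, 601, 603 and 1224, high on both arrays that were high in estrogen targets.

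At 6 h, as labelled, 4 of these 44 were higher and 1 was lower (median -0.013), beside 6.47% and 5.08% of all genes. Gyg1, the primer protein of glycogen, read 472, 1257, 1205 and 883, and Sord, which oxidises sorbitol, read 284, 676, 758 and 409. Both were lowest on the array labelled control at 6 h. Idh2, the mitochondrial NADP-linked isocitrate dehydrogenase, read 1507, 4491, 3123 and 2886, and Sdha, a subunit of succinate dehydrogenase, was 2.03-fold higher. Slc2a1, the widespread glucose carrier, read 1788, 656, 711 and 1038, which is 2.72-fold lower on the array labelled estradiol at 6 h. It was highest on the array labelled control at 6 h and next on the estradiol array at 24 h.

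Fitted over both times with the labels as given, limma called 0 of 6157 probe sets at an adjusted p of 0.05, or 0.0% of those tested, and 104 had an unadjusted p under 0.05. Of the 54 measured member probe sets 0 were called and 3 had an unadjusted p under 0.05: Pygb by its expressed sequence tag probe sets and Idh1. The lowest adjusted p among members was 0.999. The fit had 1 residual degree of freedom.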

How the data were processed

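Biotin-labelled RNA of 4 myometrium pools was measured on 4 arrays, 1 per group. The probe set signal intensity values were deposited by the authors in 1 table and, per the submitters' processing notes, were made with MAS5, which combines the probes of a set and scales each array. Its version is not given in the sources used here. Per the file headers of the instrument records, the deposited wash and scan entries hold other values and were read for scan day, lot and wash errors.

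From the 8799 probe sets 59 controls were removed. Signals were scaled to a 2% trimmed mean of 500, set to no less than the 40th percentile of their array (89.5 to 108), here called the floor, and turned to log2. The brightest probe set stood for a gene. A difference counted at 2-fold with the brighter array above its floor, and the fold is a bound where the dimmer one was not. With both at the floor a gene entered medians as the ratio of the floors. Of the probe sets used, 7006 had 1 symbol in the platform table, 308 several and 1426 none. All measured members with a 2-fold difference are named with their 4 signals, others by role or range. Treatment over both times was fitted with limma 3.58.1 (R 4.3.3) with time as a covariate and Benjamini-Hochberg adjustment, checked on simulated data. Python 3.11.15 did the rest. Alternatives were other scalings, floors, fold thresholds, probe set rules and control arrays. The members and lists were chosen with earlier results of these data known. The number of arrays limits the precision.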

Additional observations from a re-analysis of the deposited data

Results flagged for a closer look

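Pygm moved in opposite directions at the 2 times as labelled, with a log2 difference of -1.05 at 24 h and 1.49 at 6 h. The difference between the times was not tested, since each group is 1 array, and the labels at 6 h go against known estrogen targets.

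Gapdh was measured by control probe sets that entered no count. Its 3′, 5′ and middle probe sets were 2.32-, 2.11- and 1.83-fold higher on the estradiol array at 24 h than on the control array.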

How the results depend on the processing

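No paired analysis was possible because each group is 1 array of pooled RNA. The limma fit took time, and with it scan day, as a covariate. The count of members higher at 24 h, 8 as reported, was 3 at 3-fold, namely Pdha1, Cs and Taldo1, all low on the 24 h control. It was 5 when probe sets of a gene were averaged. It was also 5 with no probe sets low on the 24 h control, which was chosen after seeing the data. With the control of the other time it was 5 as well: Pgk1, Me1 and Idh1 of the 8, and also Pdk2 and Aco1. The control at 6 h is here the array with that label, which was high in estrogen targets. The count lower at 24 h, 1 as reported, was 0 with a common median, quantile normalization, a pseudocount of 50, 3-fold, the mean of both controls and the control of the other time, 2 with a floor at the 20th percentile and 3 at 1.5-fold. At 6 h the 6 higher members became 3 at 3-fold, and the 0 lower became 2 with a floor at the 20th percentile and 1 with the pseudocount and at 1.5-fold. Between the controls the 4 higher became 7 at 1.5-fold, and the 3 lower became 5 with the floor at the 20th percentile and 0 without probe sets low on the 24 h control. Over all genes, those lower at 24 h numbered 291 as reported, 203 with a common median and 220 after quantile normalization. For the other changes of fold, floor, probe set or control, the count of all genes is not given here. The member counts under them cannot be set against the shares of all genes. With the control of the other time, log2 differences changed sign for Aco1 (-0.39), Idh1 (-0.12), Pdk2 (-0.039) and Pygm (-0.22) at 6 h and for Pygm at 24 h (0.67). Without probe sets low on the 24 h control Pdha1 was -0.29 at 24 h and 0.97 between the controls, since another probe set then stands for the gene. Elsewhere the cause was not tested. limma called 0 under every alternative run, and each of these fits has the limits given above for the main one. Of 22 named differences, 22 kept their call as deposited, with floors at the 20th and 60th percentiles and without probe sets ending in _x_at or _s_at. At 3-fold 11 of the 22 lost their call, and 6 did when probe sets were averaged. Of the 15 treatment differences, 5 lost it with the mean of both controls, and with the control of the other time 5 lost it and the 5 above changed sign. Signals near the floor limit Pfkfb2, Pfkfb3, Fbp2 and Pdk1.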
